A study of Mus musculus with 24 samples.

Results

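Anti-Müllerian hormone and the receptor that binds it are encoded by Amh (ENSMUSG00000035262) and Amhr2 (ENSMUSG00000023047), 2 of the 78298 genes in the deposited count tables. Both were picked out by their symbols, with earlier results of these data known, and were followed through all 24 RNA-seq libraries. The libraries came from wild-type mouse ovarian follicles enclosed in alginate and grown for 3 days in medium with serum, insulin, transferrin, selenium and follicle-stimulating hormone (FSH) at 50 mIU/ml, conditions that every group shared. The 3 arms were control medium, medium with blebbistatin at 20 µM (an inhibitor of the motor protein myosin II) and medium with dextran giving 10 kPa (a polymer used here to compress the follicle), and each arm gave 4 granulosa cell and 4 oocyte libraries. Only follicles that had passed 180 µm were taken. They were pulled apart mechanically, and a library was made from 1 to 2 oocytes or from a larger pool of granulosa cells, so that a granulosa library is an average over many cells. No label states whether a vehicle was added to control medium, or which animals or cultures the biological replicates came from. A p-value here thus weighs a difference against variation among libraries that may be technical in part.

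AMH is a homodimeric ligand of the TGF-beta family that granulosa cells of small growing follicles secrete. It binds AMHR2, a type II receptor that serves this ligand alone, which recruits a type I receptor of the BMP family and signals through SMAD1, SMAD5 and SMAD9. In the ovary AMH is known to restrain the recruitment of primordial follicles and the sensitivity of growing follicles to FSH, and its transcript is a marker of granulosa cells from preantral to small antral stages.

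Both genes are known targets of NR5A1 (steroidogenic factor 1), a nuclear receptor of gonadal somatic cells that binds an extended half-site. The reference promoter of Amhr2, the receptor gene, is shown with that half-site (AAGGTCA or its reverse complement TGACCTT) in capitals, because Nr5a1 is followed beside the pair below. The sequence is the plus strand of chr15:102445117-102445366 in RefSeq GRCm38.p6, the 250 bases before the annotated start of transcription, 5′ to 3′.
Amhr2: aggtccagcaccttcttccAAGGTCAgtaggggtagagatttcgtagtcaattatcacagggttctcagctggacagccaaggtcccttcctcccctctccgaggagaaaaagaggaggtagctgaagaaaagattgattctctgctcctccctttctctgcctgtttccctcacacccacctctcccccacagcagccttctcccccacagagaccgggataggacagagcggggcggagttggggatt
The half-site occupied bases 20 to 26 of the window, at position −231 from the start site. The same letters on either strand were found in 1331 of 32536 reference promoters, 4.09%. A match is a description of the sequence and not evidence of binding.

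Total estimated counts ran from 16432298 to 22431013 per granulosa library and from 14244103 to 18399551 per oocyte library. Levels are CPM, counts scaled to a common library total, given as mean ± SD over n = 4 libraries, and changes are log2 values with their standard error (SE). Of the 15 granulosa markers (among them Foxl2, Inha and Fshr) 14 were detected in all 12 granulosa libraries, and 12 were higher in all of them than in any oocyte library. The exception in detection was Cyp19a1 (aromatase), at 0 in 5 granulosa libraries, with a median of 0.402 CPM there and 28.2 CPM in oocyte libraries. The 15 summed to between 22566 and 38987 CPM in granulosa libraries, against 440.5 to 3250 CPM in oocyte libraries. The 15 oocyte markers summed to between 3.28 and 38.0 CPM in granulosa libraries and from 16845 to 27951 CPM in oocyte libraries. By these sums both labels matched their markers, with 2 oocyte control libraries that carried more granulosa transcript than the rest.

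Amh was detected in every granulosa cell library and varied 12.5-fold between them. In controls it stood at 344, 281, 104 and 82.2 CPM in replicates 1 to 4 (202.7 ± 129.8, n = 4). With blebbistatin the values were 96.8, 142, 37.2 and 29.5 CPM (76.3 ± 53.0). With dextran they were 367, 59.1, 43.3 and 46.7 CPM (129 ± 159). Blebbistatin replicates 3 and 4 lay below all controls, while replicates 1 and 2 lay inside the control range. Of the dextran libraries, 3 lay below all controls and replicate 1 lay above all of them. In each arm replicates 1 and 2 lay above replicates 3 and 4, and no label says whether the numbers mark a pairing. The 12 values rested on 496 to 7252 estimated counts, so counting error is small beside the spread between libraries.

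Amhr2, the receptor gene, was far steadier in the same libraries. Control values were 333, 392, 253 and 260 CPM (310 ± 65.6). Blebbistatin values were 233, 380, 264 and 269 CPM (287 ± 64.4). Dextran values were 429, 266, 213 and 352 CPM (315 ± 94.99). The 3 groups overlapped, with 1 blebbistatin library and 1 dextran library below all controls and 1 dextran library above them, and the highest of the 12 values was 2.01 times the lowest. The SD within groups on the log2(CPM + 1) scale was 0.37 for Amhr2, larger than in 57.4% of the 10316 genes averaging 5 CPM or more. For Amh it was 1.204, larger than in 96.6% of them, with a median over those genes of 0.33.

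**Figure D1:**
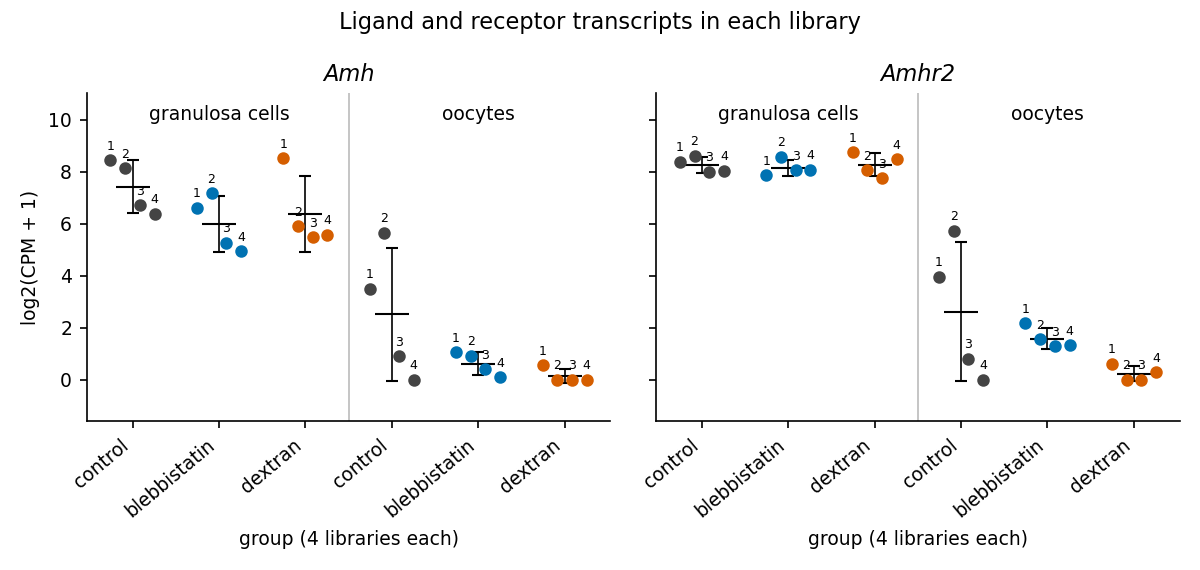
Amh (left) and Amhr2 (right) in each library on the log2(CPM + 1) scale; points are libraries with their replicate number, and bars are the mean and SD of 4 libraries. Amh spreads widely within each granulosa group, Amhr2 stays between 213 and 429 CPM in granulosa cells, and both are lower in every oocyte library than in any granulosa library of the same treatment, with oocyte control replicates 1 and 2 the highest.

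Blocking myosin II left neither gene past the threshold in granulosa cells. The log2 change of Amh with blebbistatin was −1.40 ± 0.79 (95% interval −3.11 to 0.31, edgeR quasi-likelihood test, adjusted p = 0.565, over 15370 genes). That of Amhr2 was −0.09 ± 0.23 (interval −0.60 to 0.42, edgeR adjusted p = 0.929). Of the 2 genes 0 were called by edgeR, where 0.00651% of all genes tested were called. Neither had an unadjusted p under 0.05, and DESeq2 and limma voom also called 0 of 2. As a fold of the control level the interval ran from 0.660 to 1.34 for Amhr2 and from 0.116 to 1.24 for Amh. These fits ignored the replicate numbers. With same-numbered libraries fitted as blocks, the Amh change was −1.36 with a smaller SE (edgeR adjusted p = 0.341).

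The granulosa marker level (mean of log2(CPM + 1) over 15 markers) was also lower with blebbistatin, by a difference that did not pass. It was 7.53 ± 0.23 with blebbistatin and 8.20 ± 0.42 in controls (exact two-sided permutation p = 0.0571, adjusted p = 0.527 over 24 such tests). Of the 15 markers 13 had negative log2 changes and 2 had positive ones. Markers of theca and stroma stood at 4.71 ± 0.78 against 3.04 ± 1.45 and summed to between 426 and 1657 CPM against 31.4 to 430 CPM. Markers of immune cells stood at 2.498 ± 2.49 against 0.40 ± 0.30 and summed to between 2.55 and 874 CPM against 1.47 to 11.4 CPM, with 2 of 8 at 0 in controls. In pooled cells a smaller share of granulosa cells and less Amh per cell cannot be told apart. The part of these markers in the Amh values was not tested.

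Compression by dextran gave a log2 change of −0.61 ± 0.77 for Amh (interval −2.29 to 1.07, edgeR adjusted p = 1.00). For Amhr2 it was 0.05 ± 0.23 (interval −0.46 to 0.56, edgeR adjusted p = 1.00). Again 0 of 2 were called by edgeR, DESeq2 or limma voom, and edgeR called 0% of the 15370 genes. Dextran replicate 1 decided the size of the Amh value. Without it the log2 change was −2.03 ± 0.63 (edgeR unadjusted p = 0.00793, adjusted p = 0.865). In that fit 683 of 16023 genes had an unadjusted p under 0.05. With each library left out in turn the value ran from −2.03 to −0.25, so this fit is the lowest of them. The granulosa marker level was 7.88 ± 0.34 with dextran.

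Blebbistatin set directly against dextran gave log2 changes of −0.78 ± 0.78 for Amh (interval −2.47 to 0.91, edgeR adjusted p = 0.828) and −0.14 ± 0.23 for Amhr2 (interval −0.65 to 0.37, edgeR adjusted p = 0.912). Here too 0 of 2 genes and 0% of all genes were called. The Amh value changed sign without dextran replicate 1, to 0.63 ± 0.60. Whether the treatments differ in their effect on Amh was thus not resolved by these libraries.

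**Figure D2:**
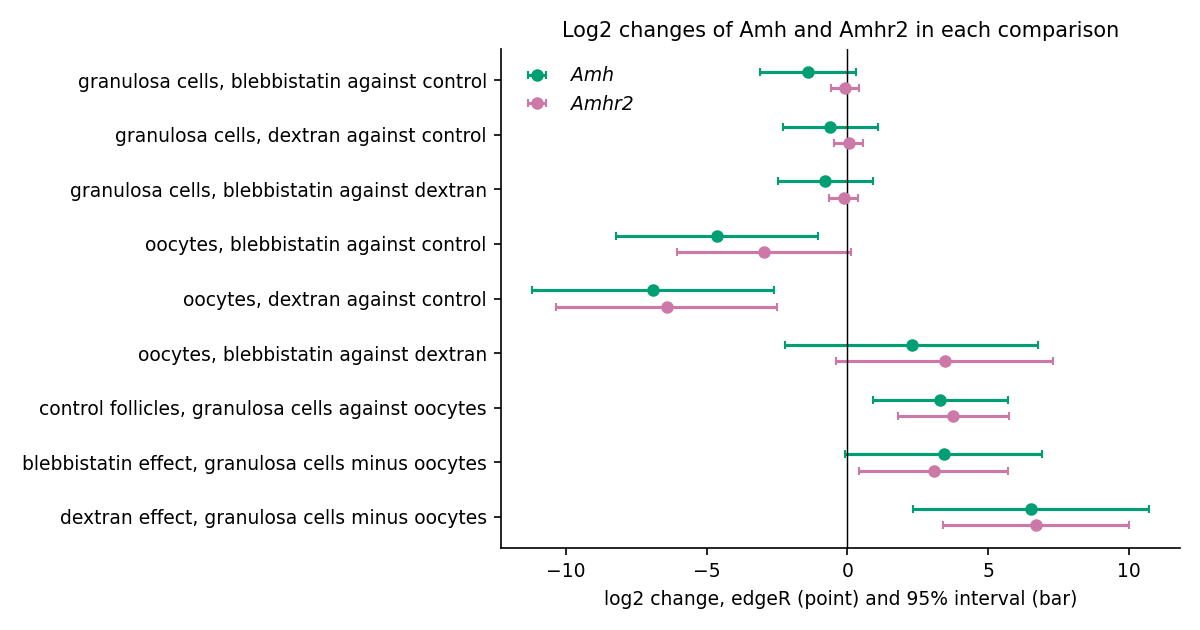
Log2 change of Amh and Amhr2 in each comparison, edgeR estimate (point) with its 95% interval (bar). In granulosa cells the Amhr2 intervals stay within 0.65 of zero while those of Amh are several times wider, and in the control comparison of cell types both intervals lie above zero.

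Per length, the ligand transcript was below that of its receptor in most granulosa libraries. Levels were divided by the longest coding transcript in GENCODE M21, 1670 bases for Amh and 1938 bases for Amhr2. The ratio of Amh to Amhr2 in CPM per kilobase ran from 0.127 to 1.199, with a median of 0.400. It was above 1 in 1 library, control replicate 1, and was 0.992 in dextran replicate 1 and 0.832 in control replicate 2. The ratio followed Amh, since Amhr2 varied little.

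**Figure D3:**
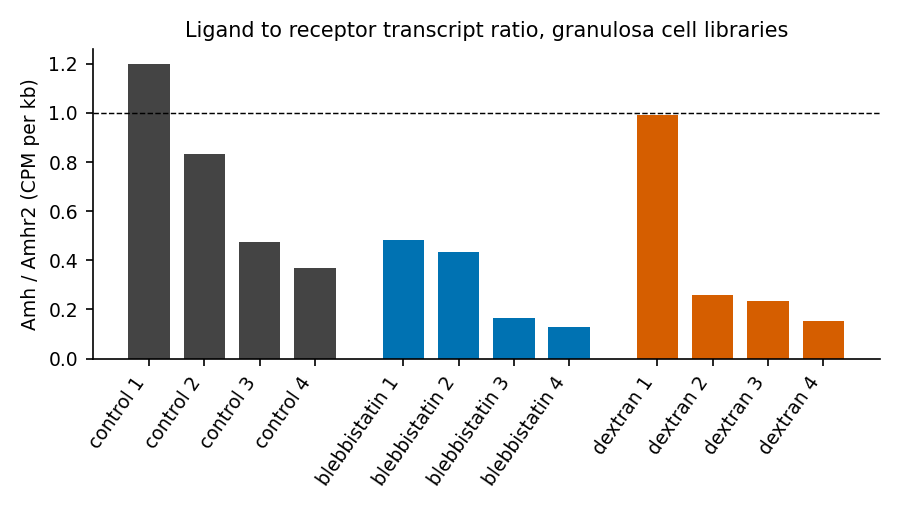
Ratio of Amh to Amhr2 transcript (CPM per kilobase) in each of the 12 granulosa cell libraries; the dashed line marks equal levels. The ligand exceeds the receptor in control replicate 1 alone, and the lowest ratio is 0.127.

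Amh and Amhr2 were correlated across the 12 granulosa libraries by one measure and not by another. Pearson's r of log2(CPM + 1) was 0.660 (permutation p = 0.0220, adjusted p = 0.0331 over 6 relations) and Spearman's rho was 0.490 (permutation p = 0.110, adjusted p = 0.165). Without control replicate 1 and dextran replicate 1, the libraries farthest from the median of Amh, r was 0.518 (permutation p = 0.124) and rho 0.236 (permutation p = 0.516), so the relation did not hold without them. Its adjusted p also missed the threshold without control replicate 2 (r = 0.599), dextran replicate 1 (0.537), dextran replicate 2 (0.650) or dextran replicate 3 (0.621). With group means removed r was 0.721. Against the granulosa marker level, r was 0.496 for Amh (permutation adjusted p = 0.122; rho 0.406) and 0.281 for Amhr2 (permutation adjusted p = 0.372; rho 0.294). Without control replicates 1 and 3, the libraries farthest from the median marker level, r was 0.420 for Amh and 0.574 for Amhr2.

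Oocyte libraries held little of either transcript, and most of what they held was in 2 control libraries. Amh stood at 10.3, 49.2, 0.863 and 0 CPM in controls (15.1 ± 23.2), at 1.09, 0.894, 0.324 and 0.0660 CPM with blebbistatin, and at 0.462, 0, 0 and 0 CPM with dextran. Control replicates 1 and 2 stood far above the other 10 libraries, which had at most 18 Amh counts each. Amhr2 stood at 14.5, 51.6, 0.740 and 0 CPM in controls (16.7 ± 24.2), at 3.50, 1.93, 1.43 and 1.52 CPM with blebbistatin, and at 0.528, 0, 0 and 0.211 CPM with dextran. A count of 0 here allows a level of up to 0.174 to 0.211 CPM, the value of 3 counts, and this limit covers counting error only.

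The same 2 control libraries were rich in other granulosa transcripts. In control replicate 2 Amh stood at 24.3% and Amhr2 at 16.7% of their mean level in control granulosa cells, Foxl2 at 18.6%, Inha at 9.02%, and the median of the 15 markers at 11.4%. In control replicate 1 the values were 5.09% for Amh, 4.69% for Amhr2, 3.55% for Foxl2, 1.69% for Inha and 2.95% for the marker median. Blebbistatin replicate 1 was near it in the marker median (2.58%) and Inha (1.79%), as percentages of the blebbistatin granulosa means. Its Amh stood lower, at 1.42%, as did Amhr2 at 1.22% and Foxl2 at 1.23%. In control replicate 4, where both members were at 0, the marker median was 0.0926% and Inha stood at 0.0748%. Not every marker was higher in control replicate 1 than in control replicate 4 to that extent: Kitl stood at 9.86% and 9.91%, Nr5a2 at 11.3% and 10.1%, and Serpine2 at 10.0% and 9.35%. The part of carried-over granulosa cells in the members' values was not tested.

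**Figure D4:**
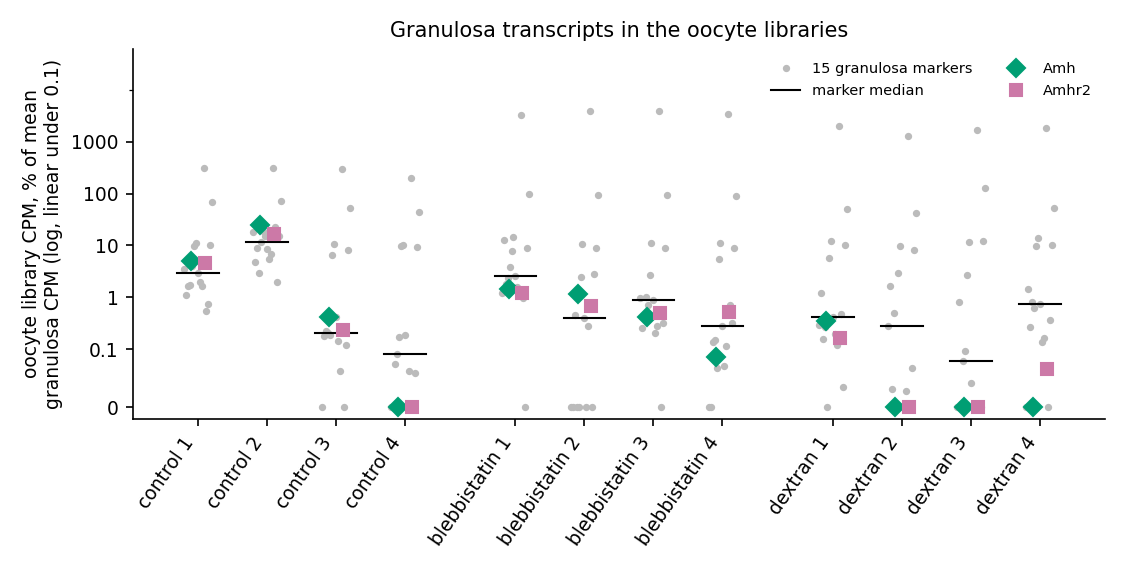
Amh, Amhr2 and 15 granulosa markers in each oocyte library as a percentage of their mean CPM in granulosa cells under the same treatment (log axis, linear below 0.1). The members peak in control replicate 2; Cyp19a1 and Cdh2 lie above both members in all 12 libraries, while Nr5a2 and Serpine2 stay between 8.09% and 15.5% and lie below both members in control replicate 2.

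Over the 12 oocyte libraries no pooled correlation is given, since control replicates 1 and 2 stand apart. Over the other 10, r between Amh and Amhr2 was 0.761 (rho 0.867), and r with the granulosa marker level was 0.617 for Amh (rho 0.575) and 0.691 for Amhr2 (rho 0.620), with no test.

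In oocyte libraries the fitted log2 change with blebbistatin was −4.63 ± 1.63 for Amh (edgeR unadjusted p = 0.0165, adjusted p = 1.00) and −2.97 ± 1.40 for Amhr2 (unadjusted p = 0.0575, adjusted p = 1.00). With dextran it was −6.91 ± 1.95 for Amh (edgeR unadjusted p = 0.00476, adjusted p = 0.857) and −6.43 ± 1.78 for Amhr2 (unadjusted p = 0.00432, adjusted p = 0.857). For each treatment 0 of 2 members and 0% of 16749 genes were called by edgeR, and DESeq2 and limma voom also called neither member. An unadjusted p under 0.05 was reached by 1 member with blebbistatin, where 4.1% of all genes reached it, and by both with dextran, where 5.31% did. Every one of these comparisons overlapped, because control replicate 4 held 0 counts of either gene; treated libraries lay below all controls in 1.46% of genes for blebbistatin and 1.5% for dextran. Where libraries are at 0 the fitted size depends on the prior count and is no bound.

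These values rested on control replicates 1 and 2. Without them, a setting chosen after seeing the data, the log2 change with blebbistatin was 0.43 ± 1.74 for Amh and 2.46 ± 1.35 for Amhr2, both of opposite sign. With dextran it was −1.84 for Amh and −0.98 for Amhr2.

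Blebbistatin and dextran oocyte libraries did not overlap for the receptor, but the difference did not pass. All 4 blebbistatin libraries held more Amhr2 (22 to 58 counts) than all 4 dextran libraries (0 to 8 counts), a separation in this direction seen in 1.84% of the genes tested. The log2 difference was 3.45 ± 1.74 (interval −0.39 to 7.30, edgeR adjusted p = 0.999), and that of Amh was 2.28 ± 2.04 (adjusted p = 0.999). EdgeR called 0% of genes. The granulosa marker level was 2.94 ± 0.57 in the blebbistatin and 2.52 ± 0.47 in the dextran oocyte libraries, and its part in the Amhr2 values was not tested.

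In control follicles both genes were higher in granulosa cells than in oocytes. The log2 difference was 3.30 ± 1.15 for Amh (interval 0.90 to 5.69, edgeR adjusted p = 0.0136) and 3.76 ± 0.95 for Amhr2 (interval 1.79 to 5.73, edgeR adjusted p = 0.00126). In each case all 4 granulosa libraries lay above all 4 oocyte libraries. Both passed in a comparison where 32.9% of 20601 genes were called higher in granulosa cells, and 37.5% had all granulosa above all oocyte libraries. Oocyte control replicate 2 lowered both values, which were 5.55 for Amh and 5.70 for Amhr2 without it, and 8.61 and 9.43 without control replicates 1 and 2 together. With only these 8 libraries in the fit Amh no longer passed (log2 difference 3.35 ± 1.45, edgeR adjusted p = 0.0569).

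The difference between cell types in the treatment effect (granulosa minus oocyte) was not called for either gene. For blebbistatin it was 3.43 ± 1.68 for Amh (edgeR adjusted p = 0.455) and 3.07 ± 1.28 for Amhr2 (0.378), in a test that called 0.0485% of 20601 genes. For dextran it was 6.53 ± 2.01 for Amh (edgeR adjusted p = 0.298) and 6.71 ± 1.58 for Amhr2 (0.266), in a test that called 0%. An unadjusted p under 0.05 was reached by Amhr2 for blebbistatin (11.3% of all genes reached it) and by both for dextran (9.28%). DESeq2 called Amhr2 for dextran (6.48 ± 1.497, adjusted p = 0.00686), where it called 1.02% of all genes, and limma voom called neither member. In edgeR it passed without oocyte control replicate 4 (7.13 ± 1.203, edgeR adjusted p = 0.0445). Without oocyte control replicates 1 and 2 the blebbistatin values turned to −2.04 for Amh and −2.75 for Amhr2, and the dextran values shrank to 1.19 and 0.99.

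Around the ligand and receptor, 48 genes of the pathway were counted in 9 lists, of which 43 were tested in granulosa cells and 39 in oocytes. In granulosa cells edgeR called 0 of 43 for blebbistatin, with 9 at an unadjusted p under 0.05 (3 higher, 6 lower, against 10.4% of all genes), and 0 of 43 for dextran, with 7 (5 higher, 2 lower, against 3.4%). DESeq2 called 4 for blebbistatin (Id1 and Id2 higher, Inha and Inhbb lower), where it called 2.45% of all genes, and 2 for dextran (Id1 and Id2 higher), where it called 0.273%. Limma voom called 0 for each. Of blebbistatin against dextran edgeR called 0 of 43, with 7 at an unadjusted p under 0.05 (against 8.84%), limma voom 0 and DESeq2 2 (Furin and Bmpr2, lower with blebbistatin, against 1.39%). In oocytes 0 of 39 were called for either treatment by edgeR, DESeq2 or limma voom, where DESeq2 called 0.0836% of all genes for blebbistatin and 0.0239% for dextran. At an unadjusted p under 0.05 stood 4 for blebbistatin (against 4.1% of all genes) and 8 for dextran (against 5.31%). The 8 became 1 without oocyte control replicate 2, 1 with a replicate block and 2 without control replicates 1 and 2. Between the cell types of control follicles, 35 of 46 tested genes were called by edgeR, 29 higher in granulosa cells and 6 higher in oocytes, where 77.3% of all genes were called, 32.9% and 44.4% in those directions.

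Transcripts of type I receptors that partner AMHR2 were detected in the same granulosa libraries, which are pools of cells. The type I receptor Bmpr1b stood at 227 ± 99.8 CPM in control granulosa cells, 144 ± 52.1 with blebbistatin and 256 ± 52.0 with dextran. Bmpr1a, another type I receptor, stood at 43.0 ± 10.0 CPM in controls and Acvr1 at 7.21 ± 2.12. Their log2 changes ran from −0.62 to 0.09 with blebbistatin (median −0.034, against −0.046 over all genes) and from 0.09 to 0.23 with dextran (median 0.20, against −0.0037 over all genes). In control follicles Bmpr1b did not differ between cell types beyond its error (log2 difference −0.13 ± 0.28, edgeR adjusted p = 0.685), at 192 ± 32.8 CPM in oocytes, unlike Amhr2. The BMP type II receptor Bmpr2 stood at 273 ± 96.4 CPM in control granulosa cells and 163 ± 45.6 with blebbistatin (log2 change −0.71 ± 0.23, edgeR adjusted p = 0.294).

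None of the 4 SMAD effectors passed in granulosa cells for either treatment by edgeR. Smad5 stood at 44.3 ± 5.80 CPM in controls, 42.5 ± 9.67 with blebbistatin and 45.5 ± 6.29 with dextran, and the shared partner Smad4 at 36.4 ± 2.68, 29.8 ± 15.1 and 32.7 ± 1.60 CPM. Smad9, the lowest of the 4 in controls, stood at 4.55 ± 2.36, 5.52 ± 5.57 and 11.4 ± 2.23 CPM, and all 4 dextran libraries lay above all controls (log2 change 1.35 ± 0.98, edgeR adjusted p = 1.00), as in 2.11% of all genes. The adjusted p over the 4 genes and both treatments was at least 0.619.

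Targets and inhibitors of BMP-type SMADs lay on the higher side with dextran, without passing. All 6 had positive log2 changes (median 0.88, against −0.0037 over all genes). An unadjusted p under 0.05 (edgeR) was reached by 5 of the 6, and by 3.4% of all genes. The list was chosen with earlier results of these data known, so such counts describe its genes and do not test the list. The lowest of the 6 in level had a median of only 0.586 CPM over the 12 granulosa libraries. Id1, an inhibitor of differentiation and a direct SMAD1/5 target, stood at 78.4 ± 19.9 CPM against 25.7 ± 1.59 in controls (log2 change 1.63 ± 0.25, edgeR adjusted p = 0.174). Id2, a relative, stood at 154 ± 6.99 against 64.4 ± 18.1 CPM (1.28 ± 0.20, edgeR adjusted p = 0.174). The groups of 4 libraries did not overlap for 4 of the 6 members (Id1, Id2, Id3 and the inhibitory Smad7), where 2.11% of all genes lay higher without overlap. With blebbistatin Id1 stood at 67.0 ± 27.0 and Id2 at 126 ± 31.1 CPM, each above all controls, as 2.11% of all genes were. The list's median log2 change with blebbistatin was 0.38. These genes respond to several BMP-family ligands, so the list does not measure AMH signalling alone.

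Among the transcription factors known to regulate Amh or Amhr2, 0 of the 10 tested in granulosa cells were called for either treatment by edgeR, with 1 (blebbistatin) and 0 (dextran) at an unadjusted p under 0.05 and medians of −0.22 for blebbistatin and 0.08 for dextran. Nr5a1, whose half-site is shown above, stood at 58.1 ± 6.67 CPM in controls, 47.0 ± 12.8 with blebbistatin and 53.4 ± 4.88 with dextran. Its relative Nr5a2 stood at 286 ± 13.8 CPM in controls, and all 4 libraries of each treatment lay below all controls (220 ± 30.3 and 239 ± 25.2 CPM, log2 changes −0.35 ± 0.12 and −0.24 ± 0.12, edgeR adjusted p = 0.305 and 1.00). Such a separation on the lower side was seen in 4.77% of all genes for blebbistatin and 2.66% for dextran. The zinc finger factor Gata4 stood at 90.5 ± 19.2, 98.2 ± 6.95 and 107 ± 3.50 CPM in the same order, and Wt1, the Wilms tumour factor, at 50.6 ± 13.3, 66.6 ± 24.8 and 69.9 ± 26.4 CPM. Of the 11 regulators 10 were called higher in control granulosa cells than in control oocytes, and Sox8 was called higher in oocytes, where 32.9% and 44.4% of all genes were called in those directions.

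Of 5 growth factors tested that are known to stimulate Amh, 3 were called higher in control oocytes (44.4% of all genes were) and 1 higher in control granulosa cells (32.9% were). Gdf9 stood at 6207 ± 1600 CPM in control oocytes against 0.795 ± 0.218 in control granulosa cells, and Bmp15 at 1525 ± 370 against 0.0780 ± 0.156 CPM. Bmp6 stood at 52.2 ± 5.58 CPM in control oocytes. Bmp2 went the other way, at 14.4 ± 24.4 CPM in control granulosa cells and at 0 in all 4 control oocyte libraries. In granulosa cells it stood at 6.73 ± 4.51 CPM with blebbistatin and 40.5 ± 20.9 with dextran, and neither difference from controls passed. No growth factor of the list passed for a treatment in oocytes, where the Gdf9 log2 change was 0.38 ± 0.19 with blebbistatin and 0.01 ± 0.19 with dextran (edgeR adjusted p = 1.00 for both).

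Proteases that cleave the AMH precursor were split between the compartments. Furin, the prototype proprotein convertase, was higher in control oocytes (36.4 ± 11.3 against 13.3 ± 2.57 CPM), and Pcsk5 was higher in control granulosa cells (57.8 ± 14.7 against 4.29 ± 1.92 CPM), both called by edgeR (adjusted p = 3.33e-06 and 3.11e-07). In granulosa cells Pcsk5 stood at 95.7 ± 36.8 CPM with blebbistatin (log2 change 0.76 ± 0.27, edgeR adjusted p = 0.357). Furin stood at 19.2 ± 1.34 CPM with dextran, with no overlap with the controls (0.55 ± 0.28, edgeR adjusted p = 1.00). Such a separation on the higher side was seen in 2.11% of all genes.

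Genes of FSH response that AMH is known to restrain had mostly negative log2 changes, none of which passed. Fshr, the FSH receptor, stood at 68.5 ± 8.83 CPM in controls, 25.5 ± 18.7 with blebbistatin and 43.0 ± 21.0 with dextran (log2 changes −1.40 ± 0.49 and −0.65 ± 0.48, edgeR adjusted p = 0.331 and 1.00). Each of the 4 blebbistatin libraries was under the lowest control, a separation seen in 4.77% of all genes. The list's medians were −1.48 and −0.76 over 4 tested genes, against −0.046 and −0.0037 over all genes. Apart from Fshr the listed genes were low, with medians of at most 2.10 CPM over the 12 granulosa libraries. Among other proteins secreted by granulosa cells of small follicles, the inhibin and activin subunit Inhbb stood at 528 ± 300, 98.3 ± 21.5 and 178 ± 88.8 CPM in controls, blebbistatin and dextran, and Inha at 16761 ± 1322, 11655 ± 1307 and 14745 ± 1451 CPM. For both, the blebbistatin libraries lay below all controls (edgeR adjusted p = 0.110 and 0.118), as in 4.77% of all genes. The oocyte growth signal Kitl stood at 99.8 ± 36.3, 136 ± 60.4 and 152 ± 67.8 CPM, with positive log2 changes of 0.47 ± 0.36 and 0.64 ± 0.36.

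**Figure D5:**
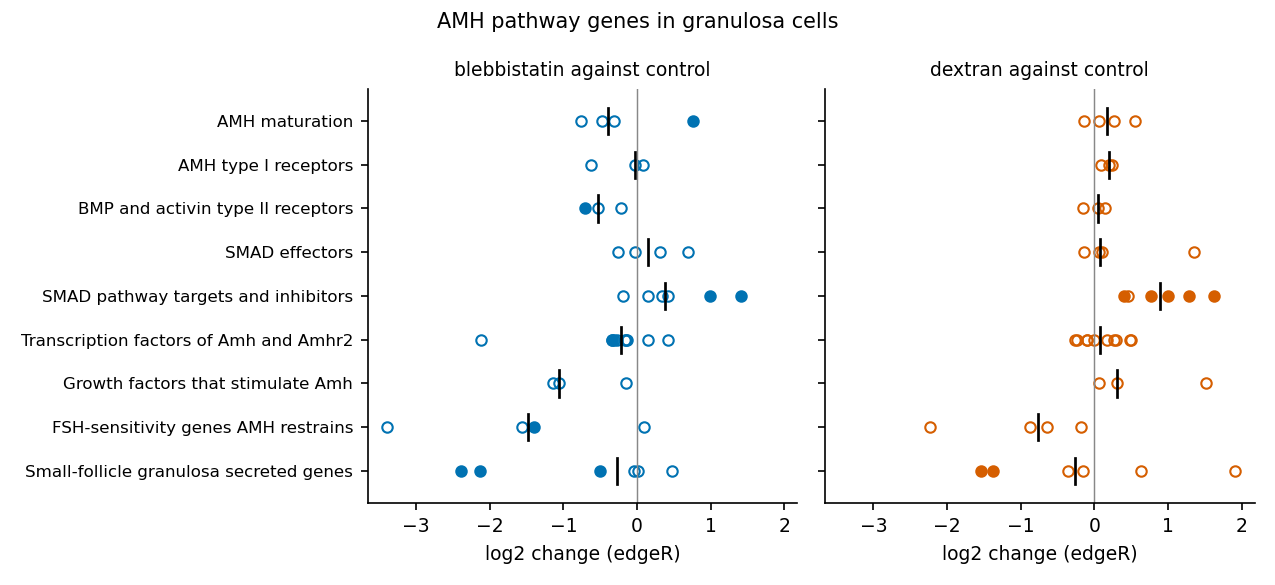
Log2 changes (edgeR) of the tested pathway genes in granulosa cells by list, for blebbistatin (left) and dextran (right); each circle is a gene, filled where the unadjusted p is under 0.05, and the black tick is the list's median. No gene passed after adjustment. SMAD targets lie to the right with dextran (median 0.88). The median of the FSH-response genes with blebbistatin is −1.48, and all of them but Fshr are low in these cells.

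Relative to Inha, the most abundant of these secreted products, Amh varied 9.24-fold between granulosa libraries, against 12.5-fold in CPM. Amh counts were 2.11, 1.82, 0.558 and 0.492% of Inha counts in control granulosa libraries, 0.943, 1.08, 0.343 and 0.237% with blebbistatin and 2.19, 0.412, 0.326 and 0.319% with dextran. Amhr2 counts were between 1.36 and 2.91% of Inha counts in all 12, a 2.13-fold range. The wider spread of Amh was thus present against a granulosa gene of the same library as well as against the total. These are ratios of counts with no correction for length.

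Across the 12 granulosa libraries the genes most like Amh (Pearson's r of log2(CPM + 1) over the 10177 other genes that have a symbol and average 5 CPM or more) were Oaz1, Pdia4, Plxnb2, Pdia3 and Rpn2, with r of 0.931, 0.913, 0.907, 0.904 and 0.896. Pdia3 and Pdia4 are protein disulfide isomerases of the endoplasmic reticulum, and Rpn2 is a subunit of the oligosaccharyltransferase that N-glycosylates proteins there. Oaz1, antizyme of ornithine decarboxylase, is also 2 protein-coding genes from Amh in the RefSeq GRCm38.p6 order. It ranged only from 894 to 1208 CPM while Amh ranged 12.5-fold. The genes most like Amhr2 were Get3, Mrm2, Med10, Mrpl28 and Pla2g12a, with r of 0.858, 0.846, 0.841, 0.831 and 0.819. All libraries share the medium and the culture time, and the r values are descriptions picked as the highest of many.

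The direct neighbours of Amh, Sf3a2 and Jsrp1, were examined because the strandedness of the counting is not given and reads of adjoining genes could be shared. Sf3a2, a splicing factor subunit, stood at 105 ± 14.7, 92.2 ± 18.7 and 95.1 ± 8.31 CPM in control, blebbistatin and dextran granulosa cells. Jsrp1 stood at 10.6 ± 5.43, 10.9 ± 4.89 and 4.37 ± 1.69 CPM. Its log2 change was −1.26 with dextran and 1.31 for blebbistatin against dextran. Both reached an unadjusted p under 0.05 (edgeR), as 3.4% and 8.84% of all genes did. The widest range of either was 5.30-fold, for Jsrp1, and neither passed for a treatment (edgeR adjusted p = 0.760 and 0.986 for blebbistatin and 1.00 for both for dextran).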

How the data were processed

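Per the labels and the submitters' processing notes, the authors deposited estimated counts per gene from salmon for 24 libraries, 1 table per cell type, with the genome build GRCm39. The sources used here do not name the annotation release, software versions or strandedness, and 0 sample columns were left unused. cDNA was amplified over 15 PCR cycles without molecular identifiers per the labels' protocols.

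Counts were rounded, filtered with filterByExpr, scaled with TMM and tested with edgeR 4.0.16 (quasi-likelihood, robust) in R 4.3.3. The granulosa fit used 12 libraries, the oocyte fit 12, and the fit across cell types all 24, with Benjamini-Hochberg adjustment over all genes and a threshold of 0.05. Printed CPM are relative to library totals without TMM factors; marker levels, spreads and correlations use log2(TMM-scaled CPM + 1). Alternatives were DESeq2 1.42.0, limma 3.58.1 (voom), other scalings, no filter, only the groups compared, a replicate block and each library left out. Steps were tested on simulated data. Correlations used 100000 permutations, and marker levels exact permutation tests of 4 against 4, whose smallest p is 0.0286. No replicate pair agreed within sampling noise (chi-square per gene at least 12.4).

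The members and gene lists were chosen with earlier results of these data known. Named genes are Amh, Amhr2, the listed pathway genes averaging 5 CPM or more in the cell type described, the neighbours of Amh, and the 5 genes most correlated with each member in granulosa cells.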

Additional observations from a re-analysis of the deposited data

Results flagged for a closer look

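Amh in dextran granulosa cell replicate 1 stood at 366.8 CPM, apart from the other 3 dextran libraries, which lay between 43.3 and 59.1 CPM. Its gap to the nearest library was 0.951 of the group's range, above Dixon's 95% critical value for 4 samples. Amhr2 was also highest in that library, at 429 CPM, and was not set apart in the same way.

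Amh in dextran oocyte replicate 1 stood at 0.462 CPM, from 7 counts, while the other 3 libraries of that group were at 0. With the other 3 at 0, any count above 0 makes the gap the whole range, so the ratio was fixed in advance and says nothing more. Among the 12 groups examined for the pair, chance gives such a value in about 1 in 20, a rate that assumes continuous values and does not apply to that oocyte group.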

How the results depend on the processing

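Over the 18 results on Amh and Amhr2 and their alternatives, 407 of 423 values kept direction and side of the threshold. With both oocyte control replicates 1 and 2 left out, which was chosen after seeing the data, the blebbistatin change in oocytes turned to 0.43 for Amh and 2.46 for Amhr2, and the difference between cell types in the blebbistatin effect to −2.04 and −2.75, while that in the dextran effect shrank to 1.19 and 0.99. With limma voom the difference between cell types in the blebbistatin effect was −0.056 for Amhr2. With only the groups compared, Amh in granulosa cells against oocytes was 3.35 and missed the threshold (edgeR adjusted p = 0.0569). The dextran difference between cell types for Amhr2 passed with DESeq2 (6.48). The causes were not tested.

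With each library left out in turn, log2 changes of Amhr2 in granulosa cells ran from −0.23 to 0.057 for blebbistatin, −0.15 to 0.20 for dextran and −0.28 to 0.063 for blebbistatin against dextran. Amh ran from −1.25 to 0.63 in the last, from −1.86 to −1.01 for blebbistatin and from −2.03 to −0.25 for dextran. With single libraries left out the dextran difference between cell types for Amhr2 ran from 4.71 to 8.10, and the correlation of Amh with Amhr2 in granulosa cells from 0.537 to 0.767.

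Pathway genes called in granulosa cells numbered 3 with no filter and 4 with DESeq2 for blebbistatin (0 to 2 with a library left out, 2 without blebbistatin replicate 2). For dextran they numbered 2 with no filter, 2 with DESeq2 and 1 with only the groups compared (0 to 2, 2 without blebbistatin replicate 1). Marker differences near 0 changed sign: theca and stroma in dextran oocytes with log2(CPM + 0.1) (−0.11) and with a library left out (−0.025 to 0.063), immune in dextran granulosa cells (−0.17 to 0.050), and in blebbistatin oocytes immune (−0.081 to 0.015), endothelial (−0.096 to 0.057) and surface epithelium (−0.032 to 0.15).

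The correlation of the deviations of same-numbered libraries ran from −0.226 to 0.384 over 12 pairs in granulosa cells, 4 of them over 0.1. In oocytes it ran from −0.208 to 0.259, with 4 of 12 over 0.1. Whether the numbers mark a pairing is not stated by the labels, and these correlations cannot decide it. With a replicate block the granulosa blebbistatin change of Amh was −1.36 ± 0.42 (edgeR adjusted p = 0.341), a smaller SE than without the block. The block changed no call of Amh or Amhr2.

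Low counts limit the oocyte values, where 4 libraries held 0 counts of Amh and 3 of Amhr2. They do not limit the granulosa values, whose lowest is 496 counts.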
